A study of Mus musculus with 31 samples.

Results

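The genes that build, anchor and remodel the extracellular matrix were examined in the retina of mice from a pair of diabetes models. A probe was a member if its annotated symbol was a numbered collagen chain (Col), a laminin chain (Lama, Lamb, Lamc), a fibulin (Fbln), a matrix metalloproteinase (Mmp) or a numbered integrin alpha chain (Itga), or was Sparc, Nid1, Nid2, Hspg2, Agrn, Bgn, Dcn or Lum, and if it was detected at a detection p-value under 0.05 on at least 6 arrays. This gave 76 probes of 59 genes among the 16743 probes so detected. Another 51 probes with such symbols failed the detection rule, 36 of them detected on 0 arrays, so that 28 genes had no probe to test. Just inside the rule lay Itga5, detected on 6 arrays, and Lum, on 8. Just outside it lay Col15a1, detected on 5. The fibrillar collagen genes Col1a1 and Col3a1 were each detected on 4 arrays at most. Fn1 and Lama5 were not analysed here.

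Basement membranes are thin sheets of matrix on which epithelia and blood vessels rest. They are built from a network of type IV collagen and a network of laminin trimers, linked by nidogens and by the heparan sulphate proteoglycans perlecan and agrin. In the eye they form the inner limiting membrane of the retina, the sleeves around retinal capillaries, Bruch's membrane under the pigment epithelium, and the lens capsule. Fibrillar collagens with small leucine-rich proteoglycans such as decorin make up the stroma of sclera and choroid, metalloproteinases cut matrix proteins, and integrins are the receptors by which cells hold on to them. Thickening of capillary basement membranes is a classical sign of diabetic retinopathy.

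Total RNA from the entire retina of C57BL/6J mice was read on 31 single-colour Illumina arrays. The groups were Ins2Akita (9 arrays, genotype Ins2Akita/Ins2, a dominant insulin gene mutation that destroys beta cells), STZ (6 arrays, treated with the beta cell toxin Streptozotocin), Control (8 arrays, the untreated mice set against STZ) and WT (8 arrays, genotype Ins2/Ins2, set against Ins2Akita). Retinas were collected after hyperglycemia of 3 months, and no age or sex is stated. Whether each array holds a different animal is not stated, and the p-values therefore cover only the scatter among these samples, part of which may be technical.

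Each array detected 15395 to 16460 probes in Ins2Akita, 15074 to 15816 in STZ, 15226 to 15650 in Control and 14581 to 15469 in WT. Photoreceptor genes marked the tissue as retina, since all 14 measured of 15 listed were detected on all 31 arrays. Every BeadChip held a single group, apart from the STZ one, which also held Ins2Akita 9, so that BeadChip and group cannot be told apart. Arrays also stood apart before any comparison was made. Nid1 exceeded a log2 intensity of 6 on 6 arrays, Ins2Akita 2 and 6, STZ 4, Control 2, WT 7 and WT 8, and was at most 5.5 on the other 25. Dcn exceeded 9.5 on 8 arrays, Ins2Akita 1, 4 and 8, STZ 3 and 4, Control 4 and 7, and WT 7, and was at most 8.8 on the other 23. Lens crystallin genes varied strongly too, with a list score, the mean log2 level of 15 measured of 17 lens genes relative to all arrays, of -3.74 to 3.67 in Ins2Akita, -0.35 to 4.63 in STZ, -3.65 to 4.87 in Control and -3.65 to 3.40 in WT.

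In Ins2Akita against WT, 3 member probes were higher and 2 lower at an adjusted p under 0.05 in limma, a linear model with moderated variances, adjusted by Benjamini-Hochberg over all 16743 probes. They were Mmp19, Col27a1 and Col5a1 (higher) and Mmp9 and Mmp1a (lower), so that 3 of the 5 calls fell on proteases. All of these probes but that of Mmp9 were also called, in the same direction, in Control against WT, both non-diabetic. That comparison uses the same WT arrays, and its values are given further below. In Ins2Akita against WT the share of members called was 6.58%, against 4.16% of all probes, of which 1.76% were higher and 2.4% lower. Of the 76 members 56 lay above 0, with a median log2 change of 0.12, against a median of -0.000922 over all probes. All 20 basement membrane probes, from type IV collagen, laminin, nidogen, perlecan, agrin and Col18a1, failed the test, with a median log2 change of 0.20 and a lowest adjusted p of 0.126. The median was 0.13 without Ins2Akita 6. Because whole retina was measured, fewer cells of a type and less RNA per cell cannot be told apart.

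**Figure D1:**
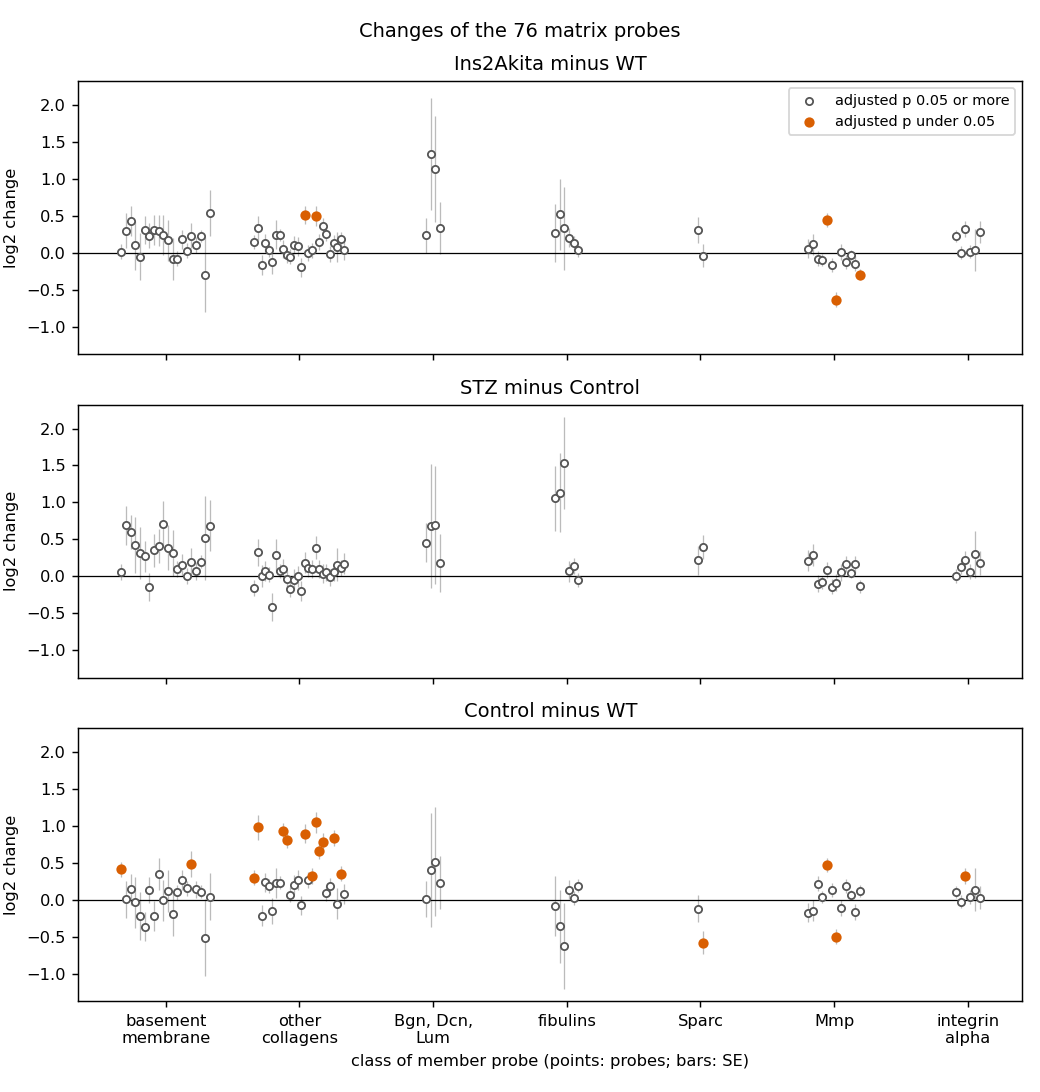
Log2 change of each of the 76 member probes, with its standard error, by class (horizontal axis) in Ins2Akita minus WT, STZ minus Control and Control minus WT (panels from top to bottom). Filled points have an adjusted p under 0.05 in limma: 5 probes in the top panel, 0 in the middle and 17 at the bottom. Of the 17, 11 are probes of collagens other than type IV and Col18a1.

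Mmp19, a metalloproteinase that cleaves basement membrane proteins, had log2 intensities of 5.32 to 5.80 in Ins2Akita (median 5.53) and 4.81 to 5.40 in WT (median 5.03). Only the lowest Ins2Akita array lay within the WT range, and the probe was detected on 9 of 9 Ins2Akita but 4 of 8 WT arrays. The log2 change was 0.44 (SE 0.0952, adjusted p = 0.00805, limma). In the deposited series matrix, where background was not subtracted, it was 0.07 (adjusted p = 0.443, limma).

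Mmp9, the gelatinase that degrades type IV collagen and denatured collagens, had log2 intensities of 7.82 to 8.01 in Ins2Akita (median 7.95) and 8.05 to 8.57 in WT (median 8.19). These ranges did not overlap, and the Ins2Akita arrays were the tighter set, with an SD of 0.0673 in Ins2Akita and 0.165 in WT. Mmp9 fell by 0.30 on the log2 scale (SE 0.0767, adjusted p = 0.0229, limma). Without WT 1, the brightest WT array, the change was -0.25 (adjusted p = 0.0561, limma).

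Mmp1a, one of the mouse genes related to human interstitial collagenase, was read by a pair of probes that differed. The dimmer one had log2 intensities of 4.92 to 5.72 in Ins2Akita (median 5.30) and 5.66 to 6.25 in WT (median 5.98), with 1 Ins2Akita array above the lowest WT value. It fell by 0.64 (SE 0.103, adjusted p = 0.000924, limma), the smallest p of any member in this comparison. The brighter probe gave -0.17 (SE 0.093, adjusted p = 0.323, limma). In the deposited series matrix, where the median of all probes was -0.086, the brighter probe gave -0.24 (adjusted p = 0.00173, limma). The probe of the related gene Mmp1b was detected on 0 arrays, and cross-hybridisation between such relatives was not tested. The 250 bases before the start of Mmp1a (RefSeq, GRCm38.p6, chr9:7463891-7464140, + strand) are shown because this probe was called in 2 comparisons, with matches to the AP-1 motif TGANTCA and to TATAAA in capitals.
Mmp1a: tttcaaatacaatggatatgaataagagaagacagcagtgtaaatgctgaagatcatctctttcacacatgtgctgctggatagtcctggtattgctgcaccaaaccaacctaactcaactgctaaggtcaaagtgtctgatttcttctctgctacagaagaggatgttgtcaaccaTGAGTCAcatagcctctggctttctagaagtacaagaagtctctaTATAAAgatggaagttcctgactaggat
The AP-1 match begins 73 bases before the start and the TATAAA match 28 bases before it. Over both strands AP-1 matches occurred in 6.75% and TATAAA in 12.4% of all 32851 windows of this length.

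**Figure D2:**
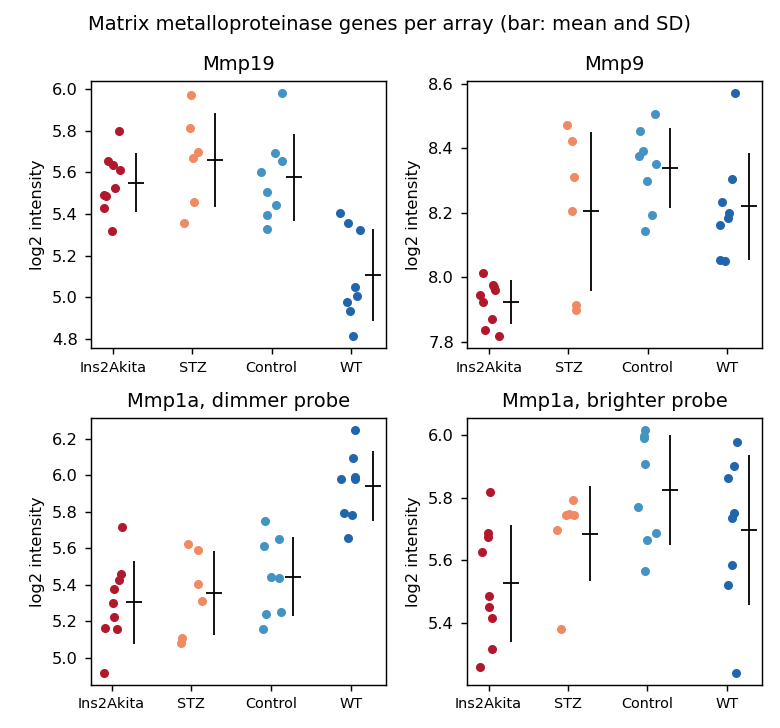
Log2 intensity (vertical axes) of Mmp19, Mmp9 and both probes of Mmp1a on every array of Ins2Akita, STZ, Control and WT, with mean and SD as bars. The 4 groups separate differently on the 2 probes of Mmp1a: on the dimmer one Ins2Akita, STZ and Control all have medians under 5.5 and WT lies at 5.98.

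Col27a1, a fibrillar collagen of cartilage and other connective tissue, had log2 intensities of 6.00 to 7.02 in Ins2Akita (median 6.58) and 5.58 to 6.38 in WT (median 6.07). The upper Ins2Akita arrays lay above every WT array, and the ranges overlapped below. It rose by 0.51 (SE 0.126, adjusted p = 0.0172, limma). Col5a1, whose chain limits the thickness of collagen fibrils, had 6.73 to 7.53 in Ins2Akita (median 7.17) and 5.66 to 7.00 in WT (median 6.76). It rose by 0.50 (SE 0.136, adjusted p = 0.0314, limma), and WT 6 was the lowest array. Without WT 6 the change was 0.36 (adjusted p = 0.065), and the call was also lost without WT 8 or without Ins2Akita 1, 3, 4, 7 or 8 (adjusted p = 0.0505 to 0.0687, limma). Both collagens lost the call when Ins2Akita 6, STZ 4, WT 7 and WT 8 were left out together, with 0.40 for Col27a1 and 0.51 for Col5a1 (adjusted p = 0.0906 and 0.0644, limma). Col5a1 also lost it with neighbouring tissue scores as covariates, at 0.40 (adjusted p = 0.103), and in a model of only Ins2Akita and WT (adjusted p = 0.101, limma).

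The remaining members did not pass in Ins2Akita against WT. Closest among them were Col6a1 on its brighter probe (0.36, SE 0.112, adjusted p = 0.0641) and the laminin receptor chain gene Itga3 (0.32, SE 0.105, adjusted p = 0.0734, limma). Col6a1 passed without WT 2, WT 4, WT 5 or Ins2Akita 9 (0.40 to 0.43, adjusted p = 0.0241 to 0.0468), and Itga3 without Ins2Akita 5 (0.37, adjusted p = 0.0326, limma). The leading changes in size belonged to Dcn, decorin, which binds collagen fibrils, with 1.34 on one probe and 1.13 on the other, with SEs of 0.755 and 0.719 (adjusted p = 0.343 and 0.409).

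In STZ against Control 0 members passed in limma, against 0.0358% of all probes, and 10 members (13.2%) had an unadjusted p under 0.05, as did 8.55% of all probes. Of the 76, 60 lay above 0, with a median log2 change of 0.13, against -0.0127 over all probes. Of the 20 basement membrane probes 18 lay above 0, with a median of 0.31. Without STZ 4, an array high for several of these genes, 18 lay above 0 and the median was 0.09. Some scores of neighbouring tissues had a higher mean in STZ too: the group means were 0.90 in STZ and -0.30 in Control for lens genes, 0.20 in STZ and -0.20 in Control for pigment epithelium and melanocyte genes, and 0.16 in STZ and -0.10 in Control for fibroblast genes. For cornea and ciliary epithelium genes they were 0.19 in STZ and -0.33 in Control. For pericyte and smooth muscle genes they were 0.14 in STZ and 0.02 in Control. The lens scores spread widely, with SDs of 1.92 in STZ and 2.49 in Control, and STZ 4 had the highest of STZ, 4.63. Skeletal muscle genes (-0.24 in STZ and -0.15 in Control) and blood genes (0.11 and 0.44) went the other way. The part of these tissues in the median was not tested.

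Col18a1, the source of the angiogenesis inhibitor endostatin in basement membranes, had the smallest p of any member here. Its brighter probe had log2 intensities of 10.12 to 11.21 in STZ (median 10.39) and 8.87 to 10.38 in Control (median 10.06), so that the upper Control arrays overlapped with STZ. The changes were 0.69 and 0.60 on its probes (SE 0.266 and 0.227, adjusted p = 0.417 and 0.412, limma). Fbln1, fibulin 1, a glycoprotein of basement membranes and elastic fibres, had 9.70 to 11.23 in STZ (median 10.55) and 5.94 to 10.52 in Control (median 9.61). The low end of Control was set by Control 2 and Control 6, and the changes over its 3 probes were 1.53, 1.13 and 1.05 (adjusted p = 0.452, 0.557 and 0.47, limma).

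Col5a1 had 7.86 to 8.39 in STZ (median 8.02) and 7.37 to 7.84 in Control (median 7.73), ranges that did not overlap. Its change was 0.39 (SE 0.151, adjusted p = 0.427, limma). Lamc1, the gamma chain shared by most laminins, gave 0.20 (SE 0.0935, adjusted p = 0.557), and Nid2, nidogen 2, gave 0.69 (SE 0.345, adjusted p = 0.595, limma). Col19a1 was the member lowest in STZ, at -0.41 (SE 0.19, adjusted p = 0.542). The proteases called in Ins2Akita gave 0.09 for Mmp19, -0.14 for Mmp9 and -0.09 for the dimmer Mmp1a probe in STZ (adjusted p = 0.886, 0.701 and 0.888, limma).

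The difference between the 2 models' changes was tested directly. Of the members 0 passed in limma, against 0.0179% of all probes, and 4 (5.26%) had an unadjusted p under 0.05, as did 8.65% of all probes. The dimmer probe of Mmp1a came nearest, with a change lower in Ins2Akita than in STZ by a log2 difference of -0.55 (adjusted p = 0.188, limma). For Mmp19 the difference was 0.36, for Col27a1 0.33, for Mmp9 -0.16 and for Col5a1 0.11 (adjusted p = 0.441, 0.673, 0.761 and 0.943), so that none of these calls was shown to be particular to Ins2Akita.

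In Control against WT, both non-diabetic, 17 member probes of 15 genes passed, 15 higher and 2 lower in Control. The share of 22.4% was near that of all probes, 22.2%. By direction, 19.7% of members against 11.4% of all probes were higher, and 2.63% of members against 10.9% of all probes were lower. This comparison shares WT with the Ins2Akita comparison and Control with the STZ comparison. Of the 26 probes of collagens other than type IV and Col18a1, 11 were higher, from 9 genes, and 0 lower. Of the 20 basement membrane probes 2 were higher. The pigment and lens scores overlapped between the groups, at -1.37 to 1.21 and -3.65 to 4.87 in Control and at -1.36 to 1.505 and -3.65 to 3.40 in WT. Other scores overlapped too, but their group means were not all alike. They were -0.33 in Control and 0.07 in WT for cornea and ciliary epithelium genes and 0.44 and -0.13 for blood genes. For Muller glia and astrocyte genes they were -0.10 and 0.01. With neighbouring tissue scores as covariates 17 members were called, 14 of them among the 17.

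Col7a1, which forms the fibrils that anchor epithelia to the stroma, had log2 intensities of 8.31 to 8.73 in Control (median 8.45) and 7.28 to 8.08 in WT (median 7.71). The ranges did not overlap, and the change was 0.84 (SE 0.107, adjusted p = 1.44e-06, limma). STZ lay with Control, at 8.20 to 8.87, and Ins2Akita with WT, at 7.47 to 8.09. Its other probe, detected on 11 of 31 arrays, gave 0.18 (adjusted p = 0.253).

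Col24a1, a minor fibrillar collagen, showed the same layout on both probes. The dimmer probe was detected on 3 of 9 Ins2Akita, 6 of 6 STZ, 8 of 8 Control and 1 of 8 WT arrays. The brighter probe had 5.63 to 6.41 in Control (median 6.13) and 4.92 to 5.70 in WT (median 5.17), ranges that overlapped at 1 Control array. The changes were 0.80 and 0.93 (SE 0.104 and 0.12, adjusted p = 1.74e-06 and 1.79e-06, limma).

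Col5a1 had 7.37 to 7.84 in Control, above the 5.66 to 7.00 of every WT array, a change of 1.05 (SE 0.14, adjusted p = 2.95e-06, limma). It was the largest change among the called members. Col16a1, a collagen that sits on fibril surfaces, had 6.30 to 6.77 in Control (median 6.61) and 5.00 to 6.18 in WT (median 5.54) and rose by 0.98 (SE 0.168, adjusted p = 9.17e-05, limma). Col27a1 had 6.57 to 7.23 in Control (median 6.99), again above the 5.58 to 6.38 of WT, a change of 0.89 (SE 0.13, adjusted p = 1.05e-05, limma).

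Col6a1, a chain of the beaded microfibrils that surround cells, had 9.07 to 9.36 in Control (median 9.26) and 7.79 to 8.93 in WT (median 8.42) on its brighter probe. Control was tight and WT wide, with SDs of 0.104 and 0.375, and the changes were 0.79 and 0.66 on its probes (SE 0.116 and 0.114, adjusted p = 1.17e-05 and 0.000101, limma). Its partner chain gene Col6a2 gave 0.08 (adjusted p = 0.595). Of the cartilage and vitreous collagens, Col9a1 rose by 0.35 (adjusted p = 0.0105) and Col11a2 by 0.30 (adjusted p = 0.0314), while Col2a1 rose by 0.32 on its dimmer probe (adjusted p = 0.0362) and gave 0.27 on its brighter one (adjusted p = 0.0715, limma).

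**Figure D3:**
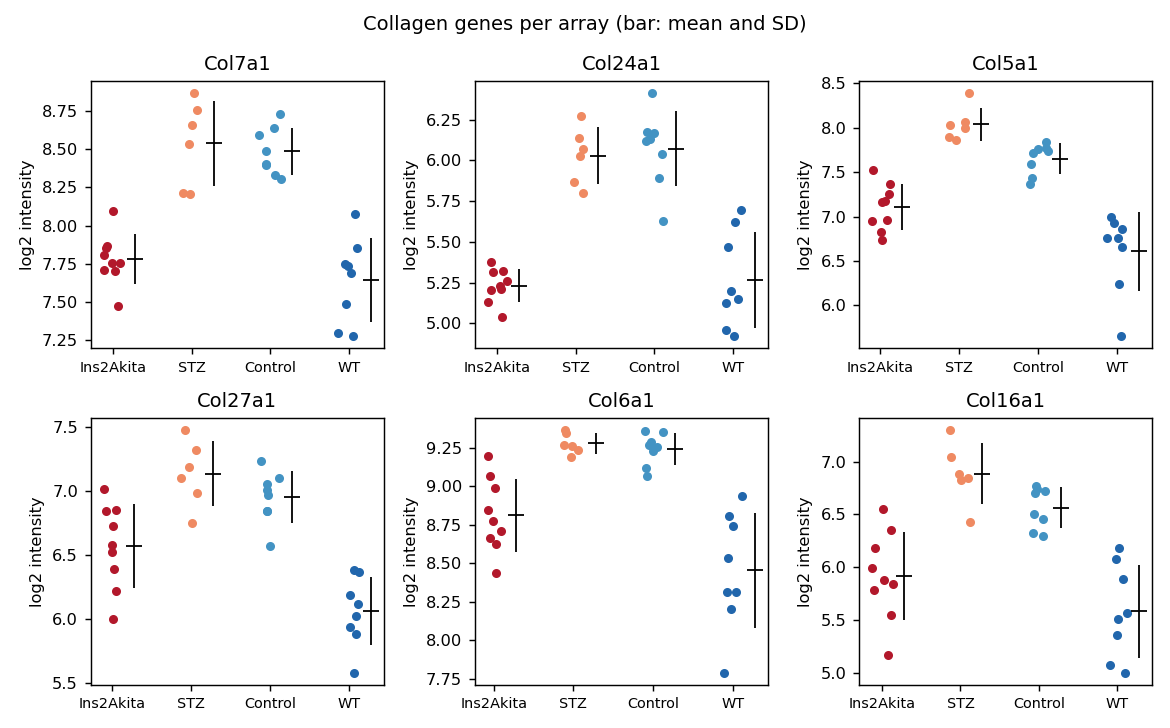
Log2 intensity (vertical axes) of Col7a1, Col24a1, Col5a1, Col27a1, Col6a1 and Col16a1 on every array of Ins2Akita, STZ, Control and WT (brightest probe of each gene), with mean and SD as bars. For Col7a1, Col5a1, Col27a1, Col6a1 and Col16a1 every Control array lies above every WT array, and STZ lies near or above Control.

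The other calls in Control against WT were few. Agrn, agrin, had 10.75 to 11.31 in Control (median 11.08) and 10.22 to 10.93 in WT (median 10.76), with 1 Control array inside the WT range, and rose by 0.41 (SE 0.105, adjusted p = 0.0051, limma). Lamb1, a laminin beta chain, rose by 0.49 (SE 0.176, adjusted p = 0.0451) and Itga3 by 0.32 (SE 0.108, adjusted p = 0.0336). Mmp19 rose by 0.47 (SE 0.0979, adjusted p = 0.000884). The dimmer Mmp1a probe fell by 0.50 (SE 0.106, adjusted p = 0.000997), while the brighter one gave 0.13 (adjusted p = 0.366, limma).

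Sparc, which binds collagen and calcium, had 9.23 to 10.05 in Control (median 9.51) and 9.79 to 10.90 in WT (median 9.94) on its brighter probe, with overlapping ranges. It fell by 0.58 (SE 0.155, adjusted p = 0.00708), and the dimmer probe gave -0.12 (adjusted p = 0.672, limma). Leaving out single arrays ended 4 of these calls: Lamb1 was lost without any of WT 1, 2, 4, 5 or 6 or Control 2, 4, 5, 6, 7 or 8 (adjusted p = 0.0502 to 0.108), Itga3 without WT 6 or Control 3, 5, 6, 7 or 8 (0.0526 to 0.0768), Col11a2 without WT 2, 6, 7 or 8 or Control 2, 5 or 8 (0.0514 to 0.0708), and the dimmer Col2a1 probe without WT 1, 6, 7 or 8 or Control 1, 4 or 8 (0.0554 to 0.0885). The brighter Col2a1 probe passed without WT 4 or WT 5 (adjusted p = 0.0385 and 0.0264, limma).

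Promoter sequence was read for the called genes to show what lies upstream of them. Of 16 genes called in any comparison 13 had a window in the RefSeq promoter table (GRCm38.p6), and for 5, Mmp1a among them, the 250 bases before the start were clear of other annotated genes. The remaining 4 are shown because they moved in Control against WT, 3 higher and Sparc lower, with matches in capitals to TGANTCA (AP-1), GGGCGG (GC box), CCAAT and TATAAA, searched on both strands. They lie at chr9:108953336-108953585 (+ strand, Col7a1), chr3:145292222-145292471 (+ strand, Col24a1), chr10:76726045-76726294 (- strand, Col6a1) and chr11:55420081-55420330 (- strand, Sparc).
Col7a1: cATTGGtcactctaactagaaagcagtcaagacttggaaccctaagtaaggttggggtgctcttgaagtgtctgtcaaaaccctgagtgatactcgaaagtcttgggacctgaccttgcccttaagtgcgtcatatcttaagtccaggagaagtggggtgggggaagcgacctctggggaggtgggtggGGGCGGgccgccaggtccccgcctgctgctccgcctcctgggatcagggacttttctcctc
Col24a1: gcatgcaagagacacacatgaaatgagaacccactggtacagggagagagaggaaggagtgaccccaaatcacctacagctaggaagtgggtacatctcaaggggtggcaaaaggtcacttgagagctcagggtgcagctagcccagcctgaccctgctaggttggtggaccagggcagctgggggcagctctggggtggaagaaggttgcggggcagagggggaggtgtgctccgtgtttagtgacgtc
Col6a1: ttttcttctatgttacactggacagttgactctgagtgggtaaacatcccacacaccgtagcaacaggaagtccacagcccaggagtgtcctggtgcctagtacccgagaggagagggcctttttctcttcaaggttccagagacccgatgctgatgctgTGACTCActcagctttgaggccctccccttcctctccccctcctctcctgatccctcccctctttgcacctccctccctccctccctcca
Sparc: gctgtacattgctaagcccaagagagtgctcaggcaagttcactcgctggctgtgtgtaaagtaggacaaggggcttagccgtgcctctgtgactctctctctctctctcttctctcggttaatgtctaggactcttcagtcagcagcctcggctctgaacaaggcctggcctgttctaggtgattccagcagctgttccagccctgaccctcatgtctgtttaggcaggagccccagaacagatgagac
Col7a1 holds a GC box match beginning 61 bases before the start and a CCAAT match on the opposite strand beginning 249 bases before it, and Col6a1 an AP-1 match at 90. The windows of Col24a1 and Sparc hold none of these letters. No matches overlapped, and GC boxes occurred in 32.7% and CCAAT in 33.8% of all 32851 windows.

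Several core basement membrane genes were set apart on single arrays within groups. Nid1, nidogen 1, which links laminin to type IV collagen, had log2 intensities of 4.71 to 8.00 in Ins2Akita (median 4.98), 4.91 to 8.32 in STZ (median 5.24), 4.77 to 6.92 in Control (median 4.96) and 4.66 to 7.88 in WT (median 5.12). The maxima were Ins2Akita 6, STZ 4, Control 2 and WT 7, and it was detected on 18 of 31 arrays. Its changes were -0.30 in Ins2Akita against WT, 0.51 in STZ against Control and -0.51 in Control against WT (adjusted p = 0.797, 0.869 and 0.523, limma). Each of these moved with single arrays: the STZ change was -0.01 without STZ 4, the Ins2Akita change 0.01 without WT 7, and the Control change -0.20 without WT 7.

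Col4a1, the main type IV collagen chain with Col4a2, had 8.44 to 10.84 in Ins2Akita (median 8.61), 8.77 to 10.87 in STZ (median 8.84), 8.57 to 9.14 in Control (median 8.71) and 7.88 to 10.38 in WT (median 8.38). Ins2Akita 6, STZ 4, WT 7 and WT 8 stood above every other array of their groups, of which the nearest was Ins2Akita 2 at 9.24. The changes of Col4a1 were 0.10, 0.42 and -0.04 in the 3 comparisons (adjusted p = 0.909, 0.822 and 0.957). The STZ change was 0.09 without STZ 4, the Ins2Akita change -0.15 without Ins2Akita 6, and the Control change 0.19 without WT 7.

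Col4a2 gave -0.05, 0.31 and -0.22, and Hspg2, perlecan, gave -0.08, 0.31 and -0.20 in Ins2Akita against WT, STZ against Control and Control against WT (lowest adjusted p = 0.673). Without STZ 4 the STZ changes were 0.01 for Col4a2 and 0.05 for Hspg2. Hspg2 followed the same arrays, at up to 8.21 in Ins2Akita, 8.08 in STZ and 8.20 in WT, against medians of 6.51, 6.44 and 6.31. STZ 4 was the highest STZ array for 12 of the 20 basement membrane probes and for 18.2% of all probes, Ins2Akita 6 for 10 and 11%, and WT 7 for 14 and 10.2%. Lens scores on these arrays were 3.67 on Ins2Akita 6, 4.63 on STZ 4, 2.22 on WT 7 and 3.40 on WT 8, while WT 6 had 3.25 and the lowest Col4a1 of all, at 7.88. Over all arrays 5 of 59 member genes, Nid1, Itga6, Col4a2, Col4a1 and Hspg2, passed against the lens score in a permutation test. Because the arrays fell into separate sets for these genes, the pooled correlations are not given. Among the 25 arrays with low Nid1, 0 of the 5 passed. These arrays were picked by the level of Nid1, which is among the 5, and the choice narrows its range. Failing there therefore does not decide whether the relations hold. The part of lens RNA in these levels was not tested.

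**Figure D4:**
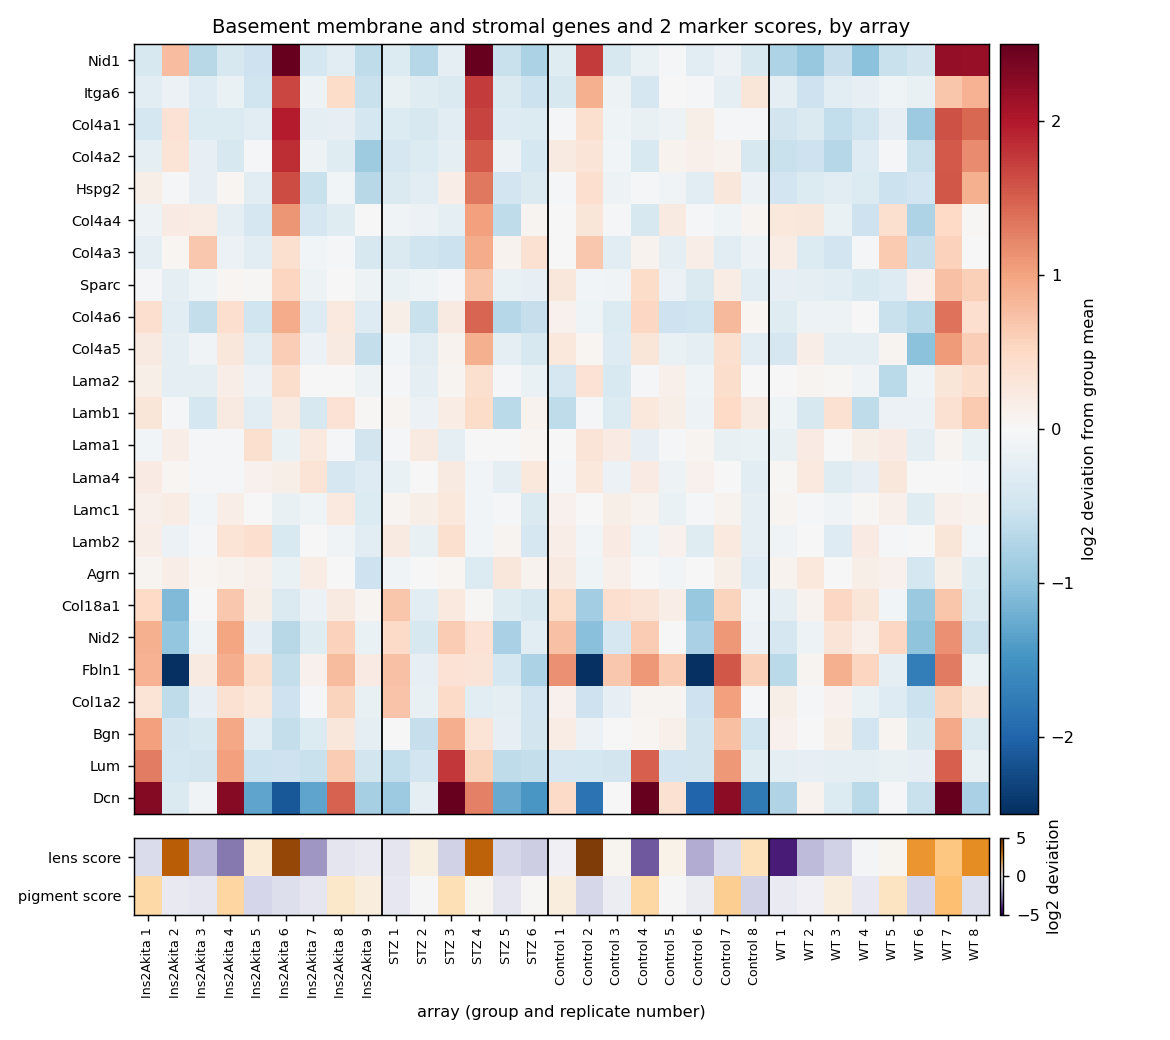
Deviation of 24 basement membrane and stromal genes (rows of the upper panel) and of the lens and pigment scores (lower panel) from the group mean on each of the 31 arrays (columns, in the order Ins2Akita, STZ, Control, WT), on a log2 scale. Ins2Akita 6, STZ 4, WT 7 and WT 8 are high from Nid1 to Hspg2. A partly different set that includes Ins2Akita 4, STZ 3, Control 7 and WT 7 is high for Dcn, Lum and Bgn.

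Stromal genes followed a set of arrays that differed only in part, since STZ 4 and WT 7 were high for both Nid1 and Dcn. Dcn had log2 intensities of 6.81 to 11.23 in Ins2Akita (median 8.57), 7.57 to 11.62 in STZ (median 8.46), 6.34 to 10.86 in Control (median 8.51) and 7.00 to 10.91 in WT (median 7.36) on its brighter probe. It had the widest spread of any member within groups, with an SD of 1.59, followed by Fbln1 at 1.24 and Nid1 at 1.12 (brightest probes). Lum, lumican, a corneal and scleral proteoglycan, was detected on 3 of 9 Ins2Akita, 2 of 6 STZ, 2 of 8 Control and 1 of 8 WT arrays. Bgn, biglycan, gave 0.24, 0.45 and 0.01 and Col1a2 gave 0.24, 0.28 and 0.23 in the 3 comparisons, all short of the threshold (lowest adjusted p = 0.459).

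Most arrays with high Dcn also had high scores for pigment epithelium and melanocyte genes (13 measured of 14 listed, 8 detected on all arrays). The score was 0.99 to 1.55 on Ins2Akita 1, 4 and 8, 1.20 on STZ 3, 0.32 on STZ 4, 1.01 and 1.21 on Control 4 and 7, and 1.505 on WT 7. The value of STZ 4 lay under the 0.68 of Ins2Akita 9 and the 0.50 of WT 5, both arrays with low Dcn. For Dcn, too, the arrays fell into separate sets, and no correlation with the score is given. Of 59 member genes 15 passed against this score over all arrays, 13 in the same direction and 2 in the opposite one, in 118 relations tested with this score and the lens score. Of the 15, 10 passed by both Pearson r and Spearman rho. Among the 23 arrays with low Dcn, 1 of the 15 passed. These arrays were picked by the level of Dcn, which is among the 15, and the choice narrows its range. Failing there therefore does not decide whether a relation holds. The share of all genes that follow this score was not computed. Nid2, whose levels formed no separate sets, had Pearson r = 0.836 and Spearman rho = 0.774 (adjusted p = 0.00118 and 0.00295, permutation with 20000 resamples), with r = 0.794 without the 2 arrays farthest from the median score. Within groups r for Nid2 was 0.845 in Ins2Akita, 0.533 in STZ, 0.840 in Control and 0.947 in WT. Col8a2, a collagen known from the corneal endothelium's basement membrane, had r = 0.661 and rho = 0.743 (adjusted p = 0.00472 and 0.00197, permutation), with r = 0.638 without those 2 arrays and 0.391 to 0.931 within groups. Among the arrays with low Dcn, Nid2 had r = 0.576 and rho = 0.488 (adjusted p = 0.056 and 0.122, permutation) and did not pass. Col8a2 had r = 0.825 and rho = 0.779 there (adjusted p = 0.00075 and 0.0015, permutation). Pericyte and smooth muscle genes (10 measured of 11 listed) also scored high on the 8 arrays with high Dcn, at 0.34 (STZ 4) to 0.82 (STZ 3). On the other 23 arrays their score was at most 0.09 (STZ 2). Relations of members with the pericyte score were not tested. Nor was the part of pigment epithelium or pericytes in these levels.

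**Figure D5:**
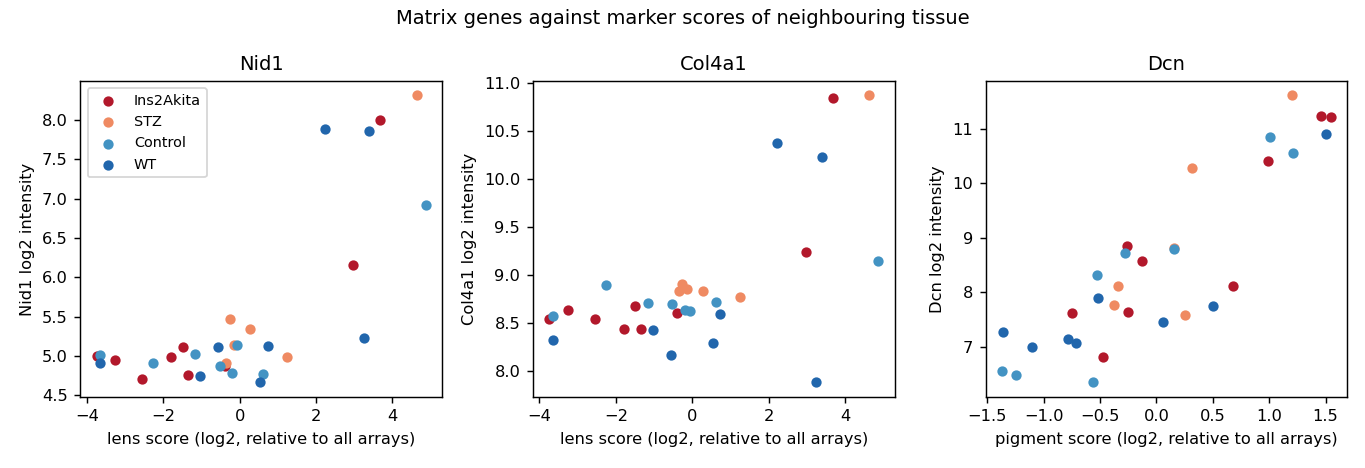
Log2 intensity of Nid1 and Col4a1 against the lens score and of Dcn against the pigment score, both scores being mean log2 levels of a marker list relative to all arrays, for each array of Ins2Akita, STZ, Control and WT. Nid1 exceeds 6 on 6 arrays, each with a lens score above 2, and Dcn exceeds 9.5 on 8 arrays.

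Chains that assemble in one molecule were compared over arrays after group means were removed. Of 6 such pairs 4 could be measured, and 2 passed in a permutation test adjusted over the 4. Lamb2 and Lamc1, which join in laminin trimers, had Pearson r = 0.53 and Spearman rho = 0.442 over 31 arrays (adjusted p = 0.0137 and 0.0502, permutation with 100000 resamples), and r = 0.511 without the 2 arrays farthest from the median of Lamb2. Without STZ 6 r was 0.431 (adjusted p = 0.0622, permutation). Col4a1 and Col4a2 passed over all 31 arrays, but their arrays fell into separate sets, so that the pooled value is not given; among the 25 arrays with low Nid1 r was 0.488 and rho 0.522 (adjusted p = 0.0398 and 0.0532, permutation of 20000 resamples). Col6a1 and Col6a2 had r = 0.357 and rho = 0.0593 over all arrays (adjusted p = 0.18 and 0.774, permutation). Nid1 and Lamc1, the fourth pair, did not pass, and Nid1 too had its arrays in separate sets.

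At the other end, some members hardly varied. Mmp24, a membrane-bound metalloproteinase of neurons, had the smallest spread within groups, with an SD of 0.125, and lay at 7.51 to 7.86 in Ins2Akita, 7.60 to 8.02 in STZ, 7.58 to 8.00 in Control and 7.64 to 7.92 in WT. Its changes were -0.03, 0.04 and 0.07 in the 3 comparisons (adjusted p = 0.858, 0.924 and 0.511, limma). Mmp9, with an SD of 0.154, and Itga11, a collagen receptor chain, with 0.164, came next. Itga5, the fibronectin receptor chain at the edge of detection, lay at 4.50 to 5.32 over all arrays and gave 0.01, 0.06 and 0.04.

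Other genes of matrix assembly and turnover were counted from 8 lists that hold no member, 121 measured of 173 listed entries, on the brightest probe of each gene. In Ins2Akita against WT 3 were higher and 2 lower, where 4.37% of all genes were called: the metalloprotease gene Adamts19 (0.70) and the glypican genes Gpc6 and Gpc1 (0.24 and 0.20) were higher, the adhesion protein gene Vtn (-0.30) and the proteoglycan gene Cspg4 (-0.42) lower (adjusted p = 0.0147 to 0.0497, limma). In STZ against Control 0 were called, with 19 at an unadjusted p under 0.05, where 0.0448% of all genes were called. In Control against WT 16 were higher and 9 lower, where 21.7% of all genes were called, led by the collagen prolyl hydroxylase gene P4ha1 (0.54), the guidance protein gene Slit2 (0.51) and the integrin chain gene Itgav (-1.42) (adjusted p = 4.96e-06, 6.98e-06 and 7.55e-05, limma).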

How the data were processed

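Retinal RNA was measured on 31 single-colour Illumina arrays, grouped by the labels. The members, lists and tests were chosen with earlier results of these data known. The authors deposited linear intensity values, background-subtracted and scaled to one mean of 351.836 per array as the values show, detection p-values for every probe, and a series matrix of intensities with a mean of 403.64 and background left in. The submitters' processing notes name BeadStudio, with no settings. Because scaling preceded deposit, differences in total signal between arrays cannot be seen.

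Log2 values were made from the deposited intensities by normexp background correction with detection p-values, an offset of 16 and quantile normalization (the neqc steps of limma 3.58.1, R 4.3.3, data.table, version 1.17.8), which understates changes of dim probes. Symbols came from the platform annotation, matched by Entrez identifier to RefSeq for 23962 of 25697 probes. Probes detected on at least 6 arrays were tested with lmFit and eBayes over 4 group means, two-sided, adjusted by Benjamini-Hochberg over 16743 probes. Arrays give no read depth, and their number limits precision. Named were all genes called in any comparison, a core set of basement membrane and stromal genes, the 3 most and 3 least variable members and those at the edge of detection. Relations with marker scores, 118 in all, were added after the values were seen. Motifs were searched with Python 3.11.15, and figures drawn with matplotlib 3.10.9. On simulated data, changes of 0.5 were called for 73.1% of probes in Ins2Akita against WT, 67.2% in STZ against Control and 74.6% in Control against WT, and changes of 0.25 for 16.4% in STZ against Control. These changes were set on 200 probes drawn from all probes, with normal noise. Members such as Col4a1, Nid1 and Dcn lay at percentiles 98.7, 99.5 and 99.8 of the spread within groups. Calls for such wide members were not simulated separately. Alternatives covered scaling, offset, detection filter, deposited series matrix, groups in the model, blocks, tissue scores and each array left out.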

Additional observations from a re-analysis of the deposited data

Results flagged for a closer look

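Single arrays stood apart from the rest of their group in 21 of 128 tests, 1 for each of 32 named genes in each group, by Dixon's test at the 95% level. Chance gives about 1 in 20 for independent genes with normal values. The named genes were picked partly for their spread, and genes such as Col4a1 and Nid1 flagged the same arrays. The share of flags over all probes was not computed, so no excess over chance is claimed. The values below are log2 intensities. Ins2Akita 6 was high for Col4a1 (10.84), Col4a2 (9.78), Hspg2 (8.21), Nid1 (8.00) and Sparc (10.68). STZ 4 was high for the same 5 genes, at 10.87 for Col4a1, 9.63 for Col4a2, 8.08 for Hspg2, 8.32 for Nid1 and 10.67 for Sparc. Control 2 was high for Nid1 (6.92) and had the highest lens score of any array, 4.87. WT 7 was high for Dcn (10.91), Lum (6.13) and Bgn (7.69), and Control 7 for Col1a2 (6.40). Fbln1 was low on Ins2Akita 2 (7.01). WT 6 was low for Itga3 (6.81) and for Lamc1 (6.99). Col11a2 was high on WT 1 (5.74), Col2a1 was high on STZ 1 (9.05), and the brighter Mmp1a probe was low on STZ 5 (5.38).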

How the results depend on the processing

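The count of 5 members called in Ins2Akita against WT depended most on the processing. It was 16 in the deposited series matrix, 4 higher and 12 lower, where all probes had a median log2 change of -0.086. Calls over all probes also rose there, to 3953 from 696 in the main processing. It was 8 with the replicate number as a block, 2 with the BeadChip as a random block, and 3 without Ins2Akita 6, STZ 4, WT 7 and WT 8, an alternative added after the data were seen. Among all probes 848, 228 and 444 were called in these settings, in that order. The labels do not say that replicate numbers pair the arrays. The values showed no clear sign of pairing but cannot exclude it. The correlation of same-numbered arrays was -0.256 to 0.331 in Ins2Akita and WT, -0.154 to 0.42 in STZ and Control and -0.207 to 0.483 in Control and WT. In these, 1, 1 and 2 of 8, 6 and 8 pairs correlated best with their own number. Leaving out 1 array gave 4 to 7 calls in Ins2Akita against WT and 13 to 18 in Control against WT, where 17 were called. It gave 0 in STZ against Control and 0 for the difference between the models. Chain pairs called were 1 to 2, with 1 without STZ 6. Other settings left the Control against WT count at 12 to 18. A pair of directions turned: Itga5 was lower in Ins2Akita in the deposited series matrix (-0.21, adjusted p = 0.0289, limma), and Col4a1 higher in Control without the 4 arrays named above (0.47). Those arrays had been picked partly for high Col4a1, so that its value is a description and no test. The cause of the first was not tested. With the BeadChip block Col27a1 (adjusted p = 0.0619), Mmp9 (0.0716) and Col5a1 (0.0937, limma) did not pass. Every BeadChip but the STZ one held a single group, so this block cannot tell BeadChip from group. Itga5 and Lum were detected on 6 and 8 of 31 arrays, so that most of their values lay near background.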
